A study of Bos taurus with 6 samples.

Results

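The unfolded protein response (UPR) genes described here are ERN1, EIF2AK3, ATF6, ATF6B, XBP1, ATF4, DDIT3, PPP1R15A, ATF3 and HSPA5. They were found by gene symbol in a table of bovine blastocyst RNA, and each of the 10 symbols matched 1 of the 36075 genes listed, of which 20337 have a symbol. The blastocysts grew from slaughterhouse oocytes that were fertilized in vitro, and the comparison was between embryos whose oocytes had been matured for 22 h with 1e-07 mol/L melatonin (MT-treated) and embryos whose oocytes were matured without it (control). Each group had 3 libraries, each library came from a pool of 3 whole blastocysts, and the concentration, the time and the pools are given by the paper and not by the sample labels. Embryo sex, sire and donor cow are not given, and MT was present during oocyte maturation and not named for the later embryo culture.

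The endoplasmic reticulum (ER) folds secreted and membrane proteins, and the UPR matches its folding capacity to the load. HSPA5, also called BiP, is the main ER chaperone and holds the stress sensors inactive until misfolded proteins draw it away. The sensors are IRE1 (gene ERN1), which splices XBP1 mRNA into the form that encodes an active transcription factor, PERK (gene EIF2AK3), which phosphorylates the translation factor eIF2 and so favors translation of ATF4, and ATF6 with its relative ATF6B, which are cut in the Golgi to release transcription factors. In embryos produced in vitro this response has been studied as a sign of culture stress, and XBP1 splicing, eIF2 phosphorylation and ATF6 cleavage are steps that a gene-level RNA table does not measure.

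The authors deposited TPM, the transcript share of each gene corrected for gene length and library total, so levels can be compared between genes, while the table does not hold the reads behind a value and no counting interval can be given. The listed TPM summed to between 936783 and 937698 in control and between 912686 and 913707 in MT-treated libraries. Genes above 0 numbered 8854 to 8953 in control and 14372 to 14408 in MT-treated libraries. Of the 11953 genes tested, 33.8% were listed at 0 in all control libraries alone and 3.01% in all MT-treated libraries alone. Each of 30 genes that every cell uses was above 0 in both groups. Their levels still differed, with 12 called higher, 16 lower and 2 not called by the limma fit described below. POLR2A, for example, had means of 1.46 and 7.13 TPM in control and MT-treated libraries, and TBP 50.2 and 12.9 TPM. Replicates were close, and over the 2992 genes that never fell under 20 TPM the median coefficient of variation was 2.07% among control and 2.56% among MT-treated libraries. The groups stood far apart as wholes. Over the tested genes, correlations of log2(TPM + 1) were 0.998 to 0.999 within control and 0.991 to 0.993 within MT-treated libraries. Between groups they were 0.544 to 0.546. The blastocyst label was checked with markers of its cell types. With MT, 7 of 10 trophectoderm markers were higher and 3 lower, where 61.6% of all tested genes were higher and 34.1% lower. Their summed level was 11895 to 12223 TPM in control and 11028 to 11435 TPM in MT-treated libraries. Most of it came from the keratins KRT8 (means 8695 and 6905 TPM) and KRT18 (2766 and 3654 TPM). Of 7 inner cell mass markers 2 were higher, 3 lower and 2 not called, POU5F1 among the last (189.8 and 193 TPM). The 3 lower ones were DPPA3 (means 196 and 108 TPM), SALL4 (56.8 and 26.6 TPM) and LIN28B (1.21 and 0.42 TPM). The sum of the 7 markers was 454 to 461 TPM in control and 353 to 355 TPM in MT-treated libraries. Of 6 hypoblast markers 4 were tested and were higher, as were 61.6% of all tested genes. GATA4 and SOX17 were not tested, with GATA4 at 0 in all 6 libraries. SOX17 was at 0 in control and at 0.14, 0.15 and 0.2 TPM in MT-treated libraries. GATA6, PDGFRA and HNF4A, like CDX2, NANOG and SOX2, passed the filter through MT-treated values alone, and LIN28B through control values alone. FN1 (means 206 and 461 TPM) was the hypoblast marker with at least 1 TPM throughout. The hypoblast sum was 204 to 208 TPM in control and 524 to 528 TPM in MT-treated libraries, with GATA6 at means of 0.327 and 32.0 TPM. The defining factors NANOG (inner cell mass), CDX2 (trophectoderm), PDGFRA and HNF4A (hypoblast) were at 0 in each control library and had means of 8.68, 16.1, 23.2 and 10.3 TPM in MT-treated blastocysts, and SOX2 had means of 0.0067 and 6.54 TPM. The label of the control libraries as blastocysts thus rests on the other markers, and the part of these cell type markers in the results on UPR genes was not tested. Of the 10 listed markers of cumulus and granulosa cells, FSHR was at a mean of 18.2 and 16.0 TPM, and the other 9 stayed at or under 0.1 TPM in each library. Because whole blastocysts were pooled, fewer cells of a type and less RNA per cell cannot be told apart.

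Of the 10 UPR genes, 8 reached the level required for testing, 1 TPM or more in 3 or more libraries, and all 8 were called at an adjusted p-value under 0.05 (limma on log2(TPM + 1), Benjamini-Hochberg adjustment). XBP1, ATF6, DDIT3, PPP1R15A and HSPA5 were lower in MT-treated blastocysts, and ATF4, ATF6B and ATF3 were higher. Calls were the rule in these data, with 61.6% of the tested genes higher and 34.1% lower in MT-treated blastocysts, and the groups did not overlap for 96.1% of them. The remaining members were ERN1 and EIF2AK3, which did not reach the level for testing. PPP1R15A passed through its control values alone, and ATF6B and ATF3 through their MT-treated values alone, so for these 3 genes a difference was built into the filter. The 5 members with at least 1 TPM in all 6 libraries were ATF6, XBP1, DDIT3 and HSPA5, which were lower, and ATF4, which was higher, and among the 5988 genes at that level 36.4% were higher and 55.6% were lower.

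**Figure D1:**
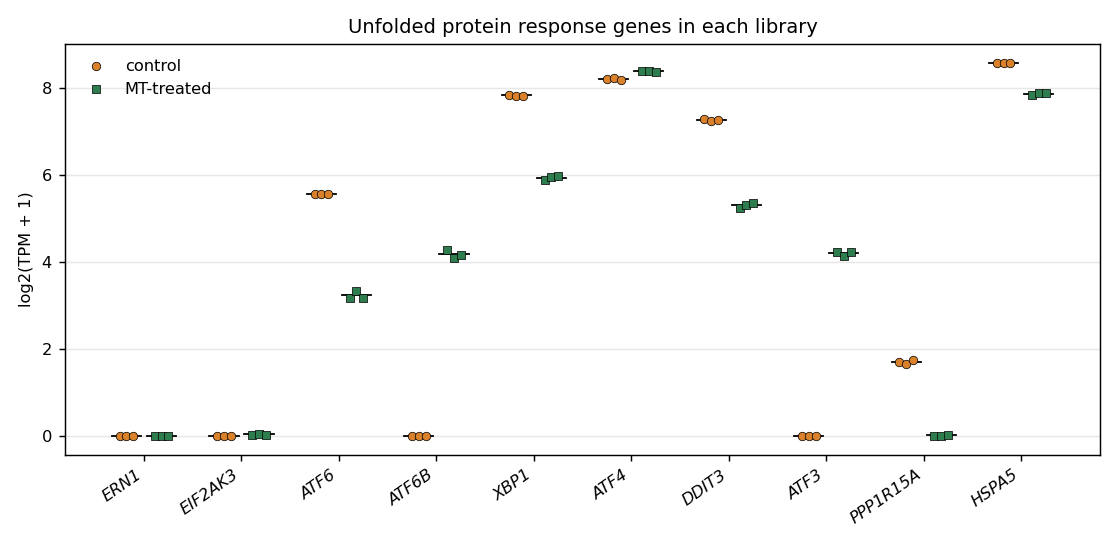
Level of the 10 unfolded protein response genes in each library, as log2(TPM + 1), with circles for the 3 control libraries, squares for the 3 MT-treated libraries and a line at each group's mean. The groups do not overlap for any gene above 0, control lies above MT-treated for ATF6, XBP1, DDIT3, PPP1R15A and HSPA5, and ATF6B and ATF3 sit at 0 in control.

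The sensor genes had low or unequal levels. ERN1 (ENSBTAG00000016799), which encodes the IRE1 kinase and endoribonuclease, was listed at 0 TPM in all 6 libraries. EIF2AK3 (ENSBTAG00000000184), which encodes PERK, had 0 TPM throughout the control group and 0.02, 0.03 and 0.02 TPM after MT treatment. TPM is rounded to 2 decimals in the table, so these values lie a few steps above the smallest that can be written, and without the reads behind them they do not show whether the kinases were made. Without the filter on low values, the difference of EIF2AK3 was 0.03 on the log2(TPM + 1) scale (standard error 0.01, adjusted p = 0.0296 by limma).

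The relatives ATF6 and ATF6B, both membrane-bound precursors of transcription factors, went in opposite directions. ATF6 (ENSBTAG00000005227) had 46.6, 46.0 and 46.4 TPM in control libraries, against 8.02, 9.12 and 8.08 TPM after MT treatment. Every MT-treated library was far under every control library, and the mean was 5.51-fold lower, from 46.4 ± 0.307 to 8.41 ± 0.618 TPM (SD, n = 3 each). The log2 fold change was -2.33 with a standard error of 0.05 (limma adjusted p = 3.35e-08), and it was -1.85 after each library was centred on a median and -3.81 after quantile normalization, in which all libraries are set to a common distribution. ATF6B (ENSBTAG00000008794) was listed at 0 in each control library and had 18.5, 16.2 and 16.9 TPM after MT treatment (adjusted p = 2.99e-09 by limma). In MT-treated blastocysts ATF6B was therefore listed above ATF6 in every library, whereas in control blastocysts ATF6 alone was listed above 0. A fold change against a group at 0 depends on the constant added before the logarithm and is not given. The share of tested genes at 0 in all control libraries is the background to such a value, and its part in the ATF6B and ATF3 results was not tested.

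XBP1 and DDIT3, which are the best known transcription factor outputs of the IRE1 and PERK branches, fell to a similar extent. XBP1 (ENSBTAG00000005970), which drives genes for ER chaperones and degradation, had 231, 225 and 226 TPM in control and 58.1, 60.9 and 62.1 TPM in MT-treated libraries. Its mean was 3.76-fold lower, from 227 ± 3.00 to 60.4 ± 2.10 TPM (SD, n = 3 each), or -1.90 as a log2 fold change with a standard error of 0.03 (limma adjusted p = 7.34e-09). The table gives 1 value for the gene, in which spliced and unspliced XBP1 mRNA are joined. DDIT3 (ENSBTAG00000031544), also called CHOP, is induced in prolonged stress and promotes cell death. It had 155, 151 and 153 TPM in control and 37.0, 38.5 and 40.1 TPM in MT-treated libraries, a mean 3.97-fold lower, from 153 ± 2.13 to 38.5 ± 1.54 TPM (SD, n = 3 each). The log2 fold change was -1.96 with a standard error of 0.03 (limma adjusted p = 1.06e-08). For both genes the gap between the groups was many times the spread within either group.

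ATF4, the transcription factor translated when eIF2 is phosphorylated, rose slightly and was the most abundant of the 10 transcripts in MT-treated blastocysts. ATF4 (ENSBTAG00000017462) had 298, 303 and 293 TPM in control and 334, 338 and 329 TPM in MT-treated libraries. The groups lay apart although the mean was only 1.12-fold higher, from 298 ± 4.89 to 334 ± 4.71 TPM (SD, n = 3 each), or 0.16 as a log2 fold change with a standard error of 0.02 (95% interval 0.12 to 0.21, limma adjusted p = 0.000173). ATF4 is controlled largely at translation, which the TPM of its mRNA does not show.

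The stress-induced factor ATF3 and the phosphatase subunit PPP1R15A, both known as downstream of ATF4, were each near 0 in a different group. ATF3 (ENSBTAG00000008545) was listed at 0 throughout the control group and had 17.8, 16.7 and 17.8 TPM after MT treatment (adjusted p = 9.47e-10 by limma). PPP1R15A (ENSBTAG00000001294), also called GADD34, guides protein phosphatase 1 to eIF2 and so restores translation. It had 2.27, 2.15 and 2.35 TPM in control and 0, 0 and 0.02 TPM in MT-treated libraries (adjusted p = 2.05e-08 by limma). The log2 fold change of PPP1R15A was -1.69 on the log2(TPM + 1) scale, which understates the change of a gene at so low a level, and was -1.21 after median centring and -2.76 after quantile normalization.

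HSPA5 (ENSBTAG00000007662), the chaperone that is also the usual readout of the response, had 379, 379.5 and 384 TPM in control and 229.7, 238 and 236 TPM in MT-treated libraries. It was the most abundant of the 10 transcripts in control and fell 1.63-fold, from 381 ± 2.74 to 234 ± 4.14 TPM (SD, n = 3 each), or -0.70 as a log2 fold change with a standard error of 0.02 (limma adjusted p = 6.25e-08). HSPA5 thus fell by less than XBP1, DDIT3 and ATF6 did. When each library was centred on the median of the 5988 genes with at least 1 TPM throughout, which removes a shift of -0.48 between the groups, the log2 fold change of HSPA5 was -0.22 and that of ATF4 was 0.64, and both remained called.

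**Figure D2:**
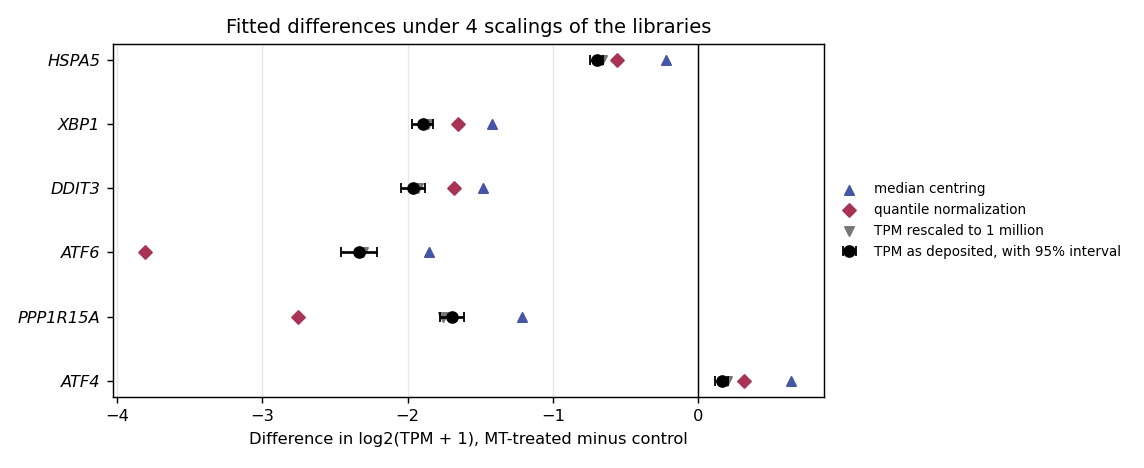
Difference in log2(TPM + 1), MT-treated minus control, for the 6 members that were above 0 in both groups and tested, with the 95% interval of the limma fit and the values under 3 other scalings of the libraries. Each point of HSPA5, XBP1, DDIT3, ATF6 and PPP1R15A lies under 0 and each point of ATF4 above 0, and HSPA5 lies nearest to 0 after median centring (-0.22).

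Within each library, the order of the members changed between the groups. In control blastocysts the mean TPM ran from HSPA5 (381) through ATF4 (298), XBP1 (227), DDIT3 (153) and ATF6 (46.4) to PPP1R15A (2.26), with no overlap between neighbours, and the other 4 members were listed at 0. In MT-treated blastocysts ATF4 (334) came before HSPA5 (234), followed by XBP1 (60.4), DDIT3 (38.5), ATF3 (17.4), ATF6B (17.2) and ATF6 (8.41). ATF3 and ATF6B overlapped in that order, as did EIF2AK3 and PPP1R15A at the bottom, where the lowest gene was ERN1.

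Ratios of TPM within a library do not change when a library is multiplied by a constant, though quantile normalization can change them. The ratio of DDIT3 to HSPA5 was 0.409, 0.397 and 0.398 in control and 0.161, 0.162 and 0.1701 in MT-treated libraries, so DDIT3 fell further than the chaperone. The ratio of XBP1 to HSPA5 went from 0.596 ± 0.0102 to 0.258 ± 0.00559, and that of ATF6 to HSPA5 from 0.122 ± 0.00108 to 0.0359 ± 0.00220 (SD, n = 3 each). The ratio of ATF4 to HSPA5 went the other way, from 0.782 ± 0.0178 to 1.42 ± 0.0283 (SD, n = 3 each). The groups did not overlap in any of the 4 ratios, and the exact two-sided permutation test gave p = 0.1 for each, the smallest value that 3 libraries against 3 allow. The ratios of XBP1, ATF6 and ATF4 were chosen after the values were seen.

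**Figure D3:**
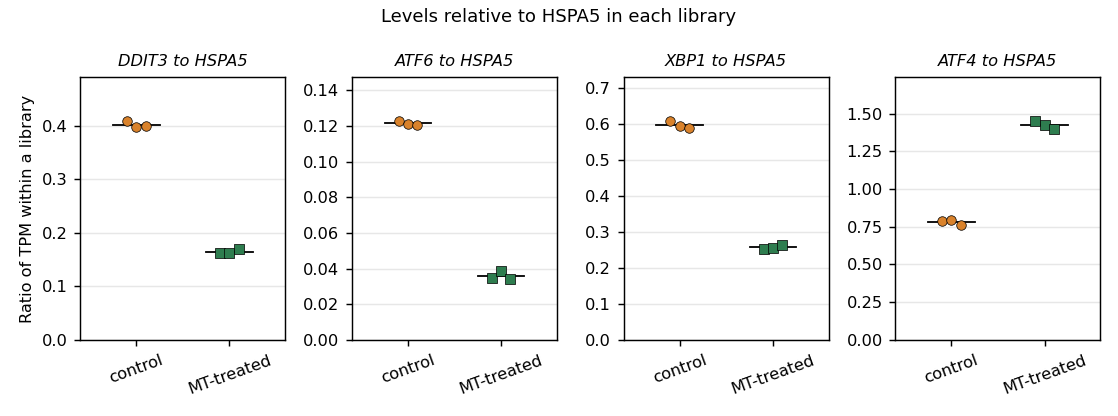
Ratio of the TPM of DDIT3, ATF6, XBP1 and ATF4 to that of HSPA5 within each of the 3 control (circles) and 3 MT-treated (squares) libraries, with a line at each mean and each vertical axis starting at 0. The ratio is lower in MT-treated libraries for DDIT3, ATF6 and XBP1 and higher for ATF4.

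Ranks within each library were compared over a fixed set of genes. Among the 5988 genes with at least 1 TPM in all libraries, ATF6 went from a percentile between 53.8 and 54.2 in control to one between 16.4 and 18.8 in MT-treated libraries. XBP1 went from between 88.5 and 88.8 to between 68.7 and 70.0, and DDIT3 from between 83.2 and 83.7 to between 57.1 and 59.1. The percentile of HSPA5 lay between 93.2 and 93.3 in control and between 90.1 and 90.4 in MT-treated libraries, but when ranked among all genes above 0 in each library, which are more in MT-treated libraries, it lay between 95.4 and 95.5 in control and between 95.9 and 96.0 in MT-treated libraries. ATF4 moved up, from between 91.2 and 91.5 to between 92.8 and 93.02.

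Genes around these members were followed in 4 lists written from general knowledge, and each list is described by its calls and by its median beside those of all tested genes, whose median difference was 1.12 on the log2(TPM + 1) scale. That median is raised by genes listed at 0 in control, and it was -0.27 over the 5988 genes with at least 1 TPM in all libraries. All differences named in the lists are MT-treated minus control from the same limma fit.

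The eIF2 kinases and eIF2 machinery through which PERK acts were more often lower than higher. Of 19 genes, all tested, 13 were lower and 6 were higher, with a median difference of -0.50, and over the 16 with at least 1 TPM throughout 12 were lower and 4 were higher, with a median of -0.62. The share that was lower was thus 68.4% of the tested genes of the list, against 34.1% of all tested genes, and 75.0% of those with at least 1 TPM throughout, against 55.6% of all genes at that level. After median centring 9 were lower and 8 higher, where 3038 of the 11953 tested genes were lower and 8412 higher. The largest fall was in PPP1R15B, the constitutive partner of protein phosphatase 1 in eIF2 dephosphorylation, with 28.6, 28 and 28.9 TPM in control and 0.31, 0.58 and 0.27 TPM in MT-treated libraries. With PPP1R15A, both known eIF2-directed phosphatase subunits were thus near 0 in MT-treated blastocysts. The catalytic subunits differed in direction, since PPP1CB fell from 112 ± 0.969 to a mean of 46.7 TPM and PPP1CC rose from 19.2 ± 1.17 to a mean of 37.8 TPM (SD, n = 3 each). PPP1CA was closer in the 2 groups, with means of 476 and 416 TPM, and was called lower (log2 fold change -0.20, adjusted p = 0.00332 by limma). It was higher after median centring and not called after quantile normalization (adjusted p = 0.332 by limma).

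Other parts of the eIF2 list changed unequally. EIF2B1, a subunit of the eIF2B exchange factor that phosphorylated eIF2 blocks, fell 15.2-fold from a mean of 50.5 to 3.33 TPM (adjusted p = 1.39e-08 by limma), while 2 of the 5 eIF2B genes were higher. EIF2S2, which encodes the beta subunit of eIF2, had means of 223 and 246 TPM (log2 fold change 0.14, adjusted p = 0.00446 by limma). Genes that were listed at or near 0 in control and called higher in MT-treated blastocysts were EIF2AK2, the kinase PKR that responds to double-stranded RNA, with 7.94, 9.66 and 9.70 TPM, and NCK1, an adaptor that binds the phosphatase, with 13.1, 11.4 and 11.2 TPM.

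In the list of IRE1 and ATF6 signal handling, the share of calls that were higher was near that of all tested genes (66.7% against 64.4%). Of 25 genes 19 were tested, 12 were higher, 6 lower and 1 was not called, and 6 of those 12 rises were from 0 in each control library. Over the 12 genes with at least 1 TPM throughout, 5 were higher and 6 lower, with a median difference of -0.06. Median centring gave 16 higher and 3 lower genes, and quantile normalization 10 and 7. MAP3K5, the kinase ASK1 that links IRE1 to JNK signaling, was listed at 0 in control and had 22.3, 20.1 and 19.4 TPM in MT-treated libraries. CREB3L2, a relative of ATF6, was also at 0 in control and had 17.4, 17.6 and 17.7 TPM.

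The proteases that cut ATF6 in the Golgi went in opposite directions. MBTPS1, which makes the cut on the luminal side, went down from 73.5 ± 1.84 to 31.6 ± 0.411 TPM (SD over 3 libraries), which is a log2 fold change of -1.19 (adjusted p = 4.00e-08 by limma). MBTPS2, which cuts within the membrane, was listed at 0 throughout the control group and had 6.49, 17.0 and 25.01 TPM after MT treatment. The lowest and the highest of these libraries were replicates 1 and 3. SIL1, the exchange factor that reloads HSPA5 with ATP, fell 4.74-fold from 28.5 ± 1.10 to a mean of 6.01 TPM (adjusted p = 4.24e-07 by limma).

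Of the 5 genes of the RNA ligase complex that rejoins XBP1 mRNA after IRE1 has cut it, 3 were higher, 1 lower and 1 not called, near the background of 61.6% higher and 34.1% lower. Median centring gave 4 higher and 1 lower, and quantile normalization 3 and 2. FAM98B, named after its values were seen, was at 0 in each control library and at 1.87, 2.46 and 2.09 TPM after MT treatment. RTCB, its catalytic subunit, fell from 65.0 ± 0.255 to a mean of 40.3 TPM (log2 fold change -0.68, adjusted p = 1.44e-05 by limma). DDX1, a helicase of the complex, had means of 62.3 and 60.4 TPM and was not called (log2 fold change -0.04, 95% interval -0.10 to 0.01, adjusted p = 0.0994 by limma), but was higher and called after median centring and after quantile normalization. TMBIM6, an inhibitor of cell death that binds IRE1, was lower by a small amount, with means of 609.8 and 580.2 TPM, but was higher after median centring and not called after quantile normalization (adjusted p = 0.826 by limma).

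The list of ATF4 and CHOP target genes was divided. Of 34 genes 31 were tested, 16 were lower, 13 higher and 2 were not called, with a median difference of -0.26. After median centring 17 were higher and 11 lower, where 8412 of the 11953 tested genes were higher and 3038 lower. Over the 23 genes with at least 1 TPM throughout, 14 were lower and 7 higher, with a median of -0.52, and the lower share of 60.9% was near the 55.6% of all genes at that level. The summed TPM of the list hardly differed, at 1242, 1243 and 1239 in control and 1238, 1247 and 1252 in MT-treated libraries. The balance in the sum hides large changes of single genes in opposite directions.

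Of the 10 targets known for growth arrest or cell death 9 were tested, and 6 were lower, 1 higher and 2 not called. Of the 8 with at least 1 TPM throughout 5 were lower and 1 higher, near the share of all genes at that level (55.6% lower). Median centring gave 5 lower and 2 higher, and quantile normalization 7 lower and 1 higher. BCL2L11, which encodes the pro-apoptotic BIM, fell from 36.3, 36.5 and 36.1 TPM in control to 0.15, 0.15 and 0.37 TPM in MT-treated libraries. GADD45A, a stress gene that slows the cell cycle, fell 6.93-fold from 107 ± 1.06 to a mean of 15.5 TPM (adjusted p = 9.17e-09 by limma). GDF15, a secreted stress factor, had 16.1, 15.1 and 16.3 TPM in control and was listed at 0 in every MT-treated library.

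The 2 genes of this list that were not called, named after their values were seen, are both widely used as ATF4 and CHOP readouts. TRIB3, a pseudokinase, had 25.6, 26.2 and 27.3 TPM in control and 8.45, 20.7 and 19.2 TPM in MT-treated libraries (log2 fold change -0.77, adjusted p = 0.0571 by limma). Without MT-treated replicate 1, which held the lowest value, the log2 fold change was -0.39 and was called (adjusted p = 0.0011 by limma), and without MT-treated replicate 2 it was -0.99 (adjusted p = 0.0438 by limma). With the replicate number as a block TRIB3 was also called (adjusted p = 0.0418 by limma). CHAC1, an enzyme that degrades glutathione, had 14.3, 14.9 and 14.2 TPM in control and 16.6, 15.4 and 14.4 TPM in MT-treated libraries, and the groups overlapped. Its log2 fold change was 0.09 (95% interval -0.05 to 0.22, adjusted p = 0.177 by limma), and 0.13 without MT-treated replicate 3 (adjusted p = 0.0356 by limma), whereas after quantile normalization it turned to -0.75.

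Among the targets that serve amino acid supply and tRNA charging were the 3 largest rises of the list on the log2(TPM + 1) scale, all from at or near 0 in control, where the size depends on the constant added. CTH, which makes cysteine from cystathionine, was listed at 0 throughout the control group and had 94.2, 91.9 and 93.5 TPM after MT treatment. PHGDH, which starts serine synthesis, was also at 0 in control and had 56.8, 61.7 and 59.0 TPM. CARS1, the cysteinyl-tRNA synthetase, had 0.05, 0.01 and 0.04 TPM in control and 24.8, 24.4 and 25.1 TPM in MT-treated libraries. Of the 7 amino acid and one-carbon enzymes, 3 were higher and 4 lower, where 61.6% of all tested genes were higher. After median centring 4 were higher and 3 lower, where 8412 of the 11953 tested genes were higher. Of the 5 with at least 1 TPM throughout 1 was higher and 4 were lower, where 55.6% of all genes at that level were lower.

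Transport and translation targets of ATF4 also differed among themselves. SLC3A2, the heavy chain shared by several amino acid transporters and named here after its values were seen, rose 12.2-fold from 11.7 ± 1.15 to 143 ± 7.54 TPM (SD, n = 3 each). EIF4EBP1, a repressor of cap-dependent translation that was named in the same way, rose 20.2-fold from 5.33 ± 0.291 to 108 ± 2.55 TPM (SD, n = 3 each). SLC7A5, a light chain that pairs with SLC3A2, stayed close, with means of 71.0 and 65.5 TPM, and GARS1, the glycyl-tRNA synthetase, had means of 89.5 and 74.8 TPM. Both were called lower by limma with TPM as deposited, and both were higher after median centring, which takes a shift of -0.48 out of every log2 difference. After quantile normalization SLC7A5 was higher (0.17) and GARS1 was not called (adjusted p = 0.657 by limma), and with TPM rescaled to equal library sums SLC7A5 was not called (adjusted p = 0.0605 by limma).

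The list of ATF6 and XBP1 target genes was mostly lower. Of 41 genes 39 were tested, 28 were lower and 11 higher, with a median difference of -0.64, and over the 33 genes with at least 1 TPM throughout 26 were lower and 7 higher, with a median of -0.69. The lower share was 71.8% of the tested genes, against 34.1% of all tested genes, and 78.8% of those with at least 1 TPM throughout, against 55.6% of all genes at that level. After quantile normalization 31 were lower and 7 higher, and after median centring 22 were lower and 14 higher, so lower genes were the more numerous under each scaling. The summed TPM of the list was 6689.7, 6666 and 6655 in control and 3860.5, 3877 and 3869 in MT-treated libraries.

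**Figure D4:**
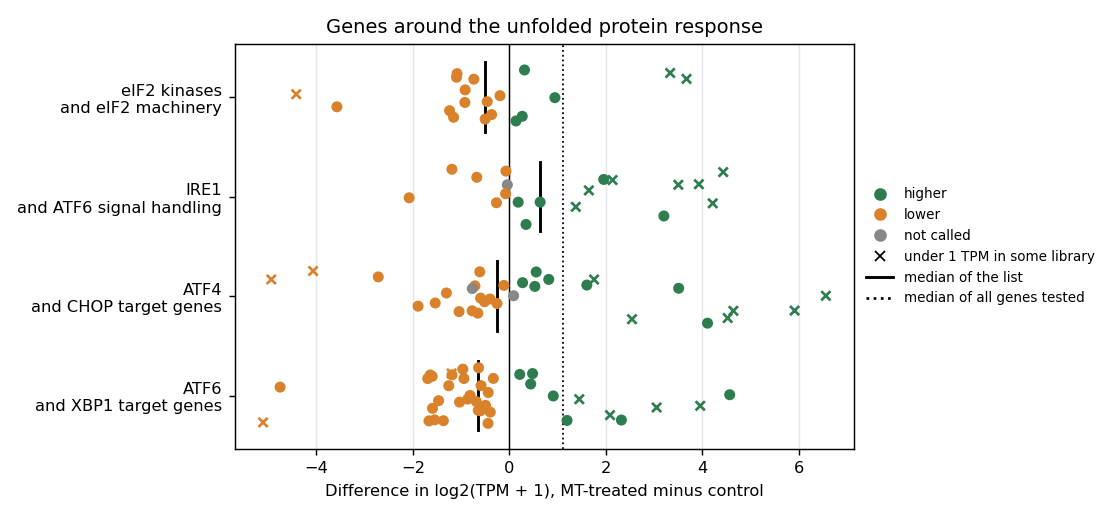
Difference in log2(TPM + 1), MT-treated minus control, of each tested gene in the 4 lists, colored by its limma call at an adjusted p-value under 0.05. Crosses are genes under 1 TPM in some library, whose fitted difference depends on the constant added, solid lines are list medians, and the dotted line is the median of all tested genes (1.12). The genes of the ATF6 and XBP1 list gather to the left of 0.

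ER chaperones and folding enzymes made up much of that decrease. Of 12 chaperones and co-chaperones 9 were lower and 3 higher, and of 8 disulfide and prolyl isomerases 6 were lower and 2 higher. All 12 chaperones and 6 of the isomerases, 5 of them lower and 1 higher, had at least 1 TPM throughout, and at that level 55.6% of all genes were lower and 36.4% higher. Median centring gave 7 lower and 5 higher chaperones, and 5 lower and 2 higher isomerases. CALR, the calcium-binding lectin chaperone calreticulin, fell 3.25-fold from 455 ± 2.64 to a mean of 140.1 TPM (adjusted p = 3.80e-09 by limma). CANX, its membrane-bound partner calnexin, was closer, with means of 123 and 97.4 TPM, and was called lower (log2 fold change -0.33, adjusted p = 0.000144 by limma). It was higher after median centring and not called after quantile normalization (adjusted p = 0.25 by limma). The isomerases PDIA6 and PDIA3, named after their values were seen, fell 3.13-fold and 2.94-fold, from means of 562 to 179.6 TPM and of 357 to 121 TPM. P4HB, the classical protein disulfide isomerase, rose slightly from 122 ± 1.73 to a mean of 142 TPM (log2 fold change 0.21, adjusted p = 0.000137 by limma).

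Further targets stood beside HSPA5 as folding partners and were likewise named after their values were seen. HSP90B1, the ER member of the HSP90 family known as GRP94, had 236, 238 and 233 TPM in control and 147, 146 and 145 TPM in MT-treated libraries, a mean that was 1.61-fold lower. DNAJB9, a J-domain protein that keeps IRE1 inactive, fell 3.31-fold from 52.2 ± 1.33 to a mean of 15.8 TPM (adjusted p = 6.50e-08 by limma). The largest rise of the list on the log2(TPM + 1) scale was in CRELD2, a secreted ER stress protein, from 1.47, 1.42 and 1.62 TPM in control to 58.5, 55.5 and 60.8 TPM after MT treatment (log2 fold change 4.57, adjusted p = 1.81e-09 by limma). With a pseudocount of 0.1 the rises of SYVN1 (6.85) and DERL1 (5.75), both near 0 in control, were larger than that of CRELD2 (5.19).

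Most genes of the degradation arm of the ATF6 and XBP1 targets were lower. Of 12 genes of ER-associated degradation 8 were lower and 4 higher, against 10 lower and 2 higher after quantile normalization and 7 lower and 5 higher after median centring. Of the 9 with at least 1 TPM throughout 8 were lower and 1 higher, against 55.6% lower among all genes at that level. EDEM1, which hands misfolded glycoproteins to degradation, fell 37.3-fold from 93.1 ± 0.955 to a mean of 2.50 TPM (adjusted p = 1.46e-09 by limma). HERPUD1, a scaffold of the degradation complex named after its values were seen, fell 3.08-fold from 124 ± 2.93 to a mean of 40.2 TPM. SYVN1, the ubiquitin ligase HRD1, had 0, 0.05 and 0.05 TPM in control and 14.1, 15.2 and 15.8 TPM in MT-treated libraries. DERL1, a component of the channel for misfolded proteins, had 0.02, 0.08 and 0.04 TPM in control and 8.02, 7.79 and 7.22 TPM in MT-treated libraries, but its direction turned after quantile normalization. SEC24D, a cargo adaptor of the COPII coat, had 33.5, 33.7 and 33.4 TPM in control and 0, 0.01 and 0 TPM in MT-treated libraries.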

How the data were processed

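RNA-seq of 6 libraries of pooled bovine blastocysts was used, 3 control and 3 MT-treated, grouped by the sample labels. By the paper, fastp and FastQC served for quality control, STAR for alignment and featureCounts for counting, and replicates came from independent production runs that held both treatments. Which library came from which run is not given in the sources used here. The submitters' processing notes name the build ARS-UCD1.2, whereas the paper names a later release. The paper names Smart-seq2 libraries and the labels a TruSeq kit, so the chemistry is uncertain. The deposited values are TPM with 2 decimals, 1 for each gene in each library. How counts became TPM, and how reads of overlapping or near-identical genes were counted, is not given in the sources used here. TPM holds no counts, and the depth that the paper tabulates was not used here, so no value carries a counting error. P-values measure the spread between these libraries.

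Values entered the fit as log2(TPM + 1). The 11953 genes with at least 1 TPM in at least 3 libraries were fitted with limma 3.58.1 (lmFit, eBayes with trend, R 4.3.3) and adjusted by the Benjamini-Hochberg method at 0.05. Ratios were compared by exact permutation tests with scipy 1.17.1. Alternatives were no filter, a minimum of 5 TPM, 0.1 as the pseudocount, genes above 0 in all 6 libraries, quantile normalization, median centring, TPM rescaled to equal library sums, eBayes without trend, a 2-fold condition, a replicate block and each library left out. Counts over genes with at least 1 TPM in all 6 libraries were added after the values were seen. The fit was also run on simulated data in which only a small part of the genes was changed. In the real data most genes were called, so that run does not test how the scaling or the adjustment behaved here.

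The members and the 4 lists were chosen with earlier results of these data known, and the division of lists by role was made after the values were seen. Named were all members and, from each list, the called genes with the 3 largest rises and the 3 largest falls on the log2 scale whose groups do not overlap, and the 2 smallest changes with a mean of at least 20 TPM over the 2 groups. Genes outside this rule are marked in the text. NANOG, CDX2, GATA4, SOX17, DPPA3, SALL4 and LIN28B among the tissue markers were chosen after their values were seen. So were POLR2A and TBP among the genes that every cell uses. Planned ratios with a member at 0 could not be computed. No sequence is printed and promoters were not analysed here.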

Additional observations from a re-analysis of the deposited data

How the results depend on the processing

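The 116 fitted differences of the 8 tested members under the alternatives other than the 2-fold condition kept their direction and their call. Of these differences, ATF6B and ATF3 gave 14 each and PPP1R15A 13. For these genes the filter built in a difference, so their agreement adds little. ATF6, XBP1, ATF4, DDIT3 and HSPA5 gave 15 each. Leaving out each library in turn left 3 members higher and 5 lower. With the replicate block 3 members were higher and 5 lower. Same-numbered libraries did not deviate together (correlations of deviations -0.0115, -0.000679 and 0.0588 over 11953 genes), so the numbers were not taken as pairs, and the block changed no member's call. The block called TRIB3 (adjusted p = 0.0418 by limma), which the fit without it did not. Among genes above 0 in all 6 libraries, and among those with at least 1 TPM in all 6, 1 member was higher, since ATF6B and ATF3 were not in those sets. The same restrictions gave 6 and 5 higher genes in the IRE1 and ATF6 list, 8 and 7 in the ATF4 and CHOP list and, for the latter restriction, 7 in the ATF6 and XBP1 list. With a 2-fold condition 2 members were higher and 4 lower, since ATF4 and HSPA5 differed by less, and a minimum of 5 TPM left 4 lower members, since PPP1R15A was not tested. Without a filter 4 members were higher, EIF2AK3 among them. With the 2-fold condition, 2 genes were higher and 6 lower in the eIF2 list, 2 lower in the IRE1 and ATF6 list, 7 lower in the ATF4 and CHOP list, and 7 higher and 14 lower in the ATF6 and XBP1 list. Median centring left 3 lower genes in the IRE1 and ATF6 list, and quantile normalization left 7 higher genes in the ATF6 and XBP1 list.

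The sign of the log2 fold change turned for PPP1CA (0.28), DDX1 (0.44), TMBIM6 (0.41), SLC7A5 (0.36), GARS1 (0.22) and CANX (0.15) after median centring, and for DDX1 (0.26), TMBIM6 (0.0021), SLC7A5 (0.17), GARS1 (0.011), DERL1 (-0.20) and CHAC1 (-0.75) after quantile normalization, where TMBIM6 and GARS1 were not called. Median centring takes the same shift of -0.48 out of every difference, so each gene that was lower by less than that had to turn, and the cause of the turns after quantile normalization was not tested. Of all genes called, 64.4% were higher with TPM as deposited, 51.1% after quantile normalization and 73.5% after median centring, so differences of single genes depend on the scaling. Large ones from near 0 in control did so too: after quantile normalization those of EIF2AK2 and NCK1 went from 3.33 to 0.56 and from 3.67 to 0.98. The reads behind each value are not in the table, which limits what can be said of genes listed at or near 0, ERN1, EIF2AK3 and PPP1R15A among them.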
